A study of Homo sapiens with 9 samples.

Results

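The genes described here are 10 members of the BCL2 family out of 60966 genes listed in an RNA-seq experiment on FIBP, which binds acidic fibroblast growth factor inside the cell. They are PMAIP1, BBC3, BCL2L11, BID, BAD, BAX, BAK1, MCL1, BCL2 and BCL2L1, found by their symbol in each sample's transcript table, with the transcript values of each gene summed. The set was selected on the fall of PMAIP1 after FIBP depletion, so the values of PMAIP1 against Scramble are given as a description without a test. The other 9 were chosen by family, with earlier results of these data known. The cells were H1299, a long-used human lung tumour line (non-small cell). All 9 samples were transfected with siRNA at 100 nM and harvested after 48 h, 3 with a scrambled control (Scramble), 3 with the FIBP siRNA Si-FIBP#1 and 3 with the FIBP siRNA Si-FIBP#2. The labels do not say that the 3 samples of a group were separate cultures, and the study's methods say that experiments were done repeatedly and independently, without naming the libraries. The tests thus measure the spread between these samples, which may be technical, in 1 cell line.

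The BCL2 family decides whether the outer mitochondrial membrane is opened to release cytochrome c, the step that commits most cells to the intrinsic pathway of apoptosis. BAX and BAK1 are the effectors that form the pore, MCL1, BCL2 and BCL2L1 (BCL-xL) hold them in check, and the BH3-only members PMAIP1 (NOXA), BBC3 (PUMA), BCL2L11 (BIM), BID and BAD bind the anti-apoptotic members or activate the effectors. PMAIP1 binds MCL1 above all and is known for leading it to degradation. These are proteins, and the data below are RNA levels.

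The part that the 10 proteins share is the BH3 core, a leucine followed further on by a small residue and an aspartate. Its codons are shown because the BH3-only members and the effectors bind the anti-apoptotic members through it. They were read from the GENCODE 29 transcript with the same identifier as the leading coding transcript in the data, which had another length there for 8 of the 10 members, by 2 to 49 nt, with coordinates on GRCh38, 5′ to 3′ in the sense of the gene. Capitals mark the leucine codon and the pair of codons for the small residue and aspartate.
PMAIP1, chr18:59902670-59902693 (+): caaCTCaggagatttGGAGACaaa
BBC3, chr19:47226588-47226611 (-): cagCTGcggcggatgGCGGACgac
BCL2L11, chr2:111150100-111150123 (+): gagTTGcggcgtattGGAGACgag
BID, chr22:17739424-17739447 (-): cacCTCgcccaggtcGGGGACagc
BAD, chr11:64271631-64271654 (-): gagCTCcggaggatgAGTGACgag
BAX, chr19:48955784-48955807 (+): tgtCTCaagcgcatcGGGGACgaa
BAK1, chr6:33575396-33575419 (-): cagCTCgccatcatcGGGGACgac
MCL1, chr1:150578874-150578897 (-): accTTAcgacgggttGGGGATggc
BCL2, chr18:63318358-63318381 (-): accCTCcgccaggccGGCGACgac
BCL2L1, chr20:31721931-31721954 (-): gcgCTGagggaggcaGGCGACgag
The small residue was glycine in 8 of the 10, alanine in BBC3 and serine in BAD. The leucine was residue 29 of the 54 of PMAIP1 and residue 213 of the 350 of MCL1. BID also held a match at residue 25, with serine, and its match at residue 90 is the one shown.

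FIBP itself was at 81.9 ± 5.71 FPKM (fragments scaled to transcript length and library size, mean ± SD, n = 3) in Scramble, 6.52 ± 1.93 in Si-FIBP#1 and 7.09 ± 1.15 in Si-FIBP#2. Each library was estimated to hold 20200000 to 24100000 fragments. The mitochondrially encoded genes took 10.1% to 10.4% of the summed FPKM in Scramble, 14.2% to 14.6% in Si-FIBP#1 and 12.2% to 13.2% in Si-FIBP#2, and the part of this in the differences below was not tested. The keratin genes KRT8 and KRT18 and the vimentin gene VIM were at 67.2 to 3369 FPKM in all samples, and their means were lower with the siRNAs. KRT8 went from 107 to 73.4 and 75.9, KRT18 from 476 to 209 and 175, and VIM from 3232 to 2307 and 1988, while the epithelial markers KRT19, EPCAM and CDH1, the lung markers NKX2-1 and SFTPB and the blood markers PTPRC and HBB stayed at or below 0.29. Of the fibroblast markers, COL1A1 had means of 0.08, 0.69 and 1.09 in the 3 groups and reached 1.59, PDGFRB reached 0.41 and COL1A2 0.02. The part of these shifts in the differences below was not tested. In bulk RNA, fewer cells of a kind and less RNA per cell cannot be told apart.

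With both siRNAs PMAIP1 was low, BCL2L11 and BAK1 rose and BAD and BAX fell, while MCL1 fell with Si-FIBP#1 and rose with Si-FIBP#2. BBC3 and BCL2L1 did not pass the test in either comparison, and BCL2 was lower with both siRNAs at a level close to the filter. All 10 members passed that filter of at least 1 FPKM in at least 3 samples. BCL2 did so only through its Scramble samples, so it is left out of the counts of members called against Scramble. Differences below are on the log2(FPKM + 1) scale from a limma fit over 14985 genes, with adjusted p-values over all of them, and both comparisons with Scramble share the same 3 control samples. Of the 8 members counted, 2 rose and 4 fell with Si-FIBP#1 at an adjusted p below 0.05, where 27.8% of all genes tested rose and 19.9% fell. With Si-FIBP#2, 3 rose and 2 fell, against 31.1% and 17.7% of all genes. With a 2-fold change asked as well, only BCL2L11 was called in each comparison, against 5.66% of genes after Si-FIBP#1 and 5.05% after Si-FIBP#2. The median difference of these 8 members was -0.08 after Si-FIBP#1 and 0.11 after Si-FIBP#2, and that of all genes was 0.07 and 0.11. The 6 calls with Si-FIBP#1 became 3 without Si-FIBP#1 replicate 2. The share of all genes called in that smaller fit is not given here, so the drop cannot be read as particular to the members. Dividing each library by its median ratio to the others left 2 that rose and 4 that fell with Si-FIBP#1, and made it 2 and 4 with Si-FIBP#2. Of all genes under that scaling, 21% rose and 25.5% fell with Si-FIBP#1, and 20.5% rose and 26.5% fell with Si-FIBP#2. The medians over the 8 were then -0.18 and -0.025. The same scaling moved the medians of all genes to -0.02 and -0.02, and the share of calls that were higher from 58.4% to 45.2% and from 63.7% to 43.6%.

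**Figure D1:**
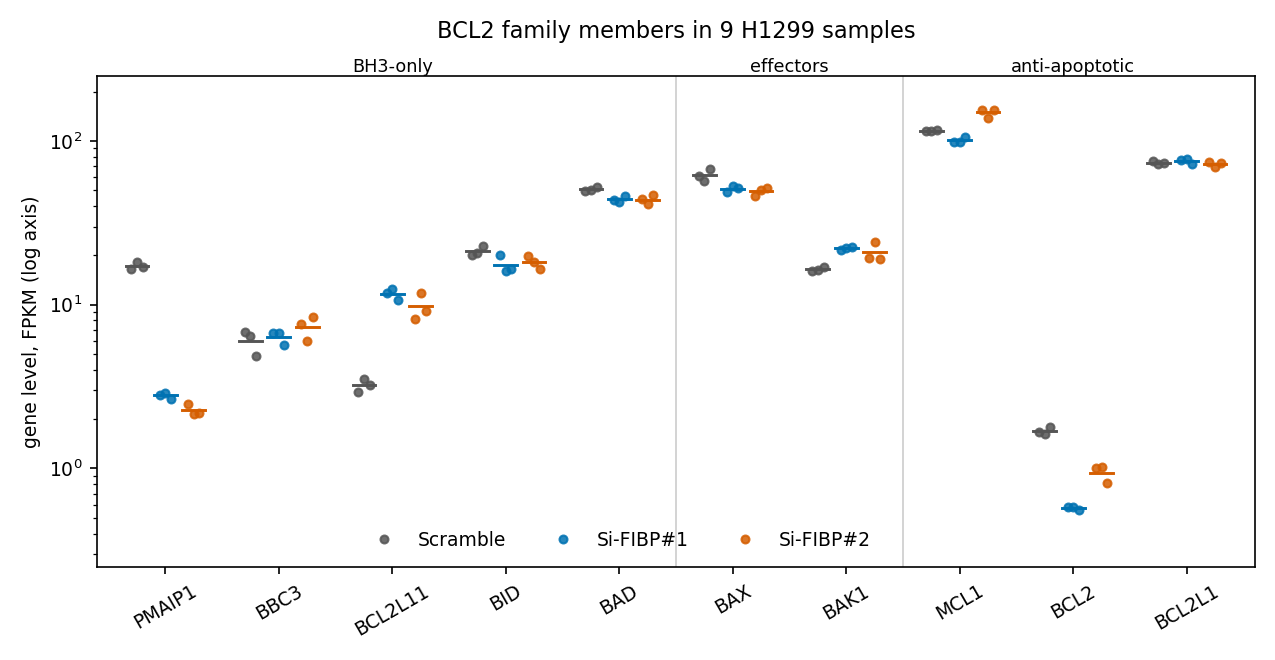
Level of each member in FPKM on a log axis, with 1 point per sample, a bar at the mean of the 3 samples of a group and the members ordered by role. The Scramble points of PMAIP1 sit at 16.61 to 18.14 and all 6 FIBP siRNA points between 2.15 and 2.90, while those of BCL2L11 run the other way.

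Among the BH3-only members, PMAIP1 (ENSG00000141682, chr18:59899948-59904306, + strand, GRCh38) was at 16.61, 18.14 and 17.04 FPKM in Scramble, 2.81, 2.90 and 2.66 after Si-FIBP#1 and 2.47, 2.15 and 2.18 after Si-FIBP#2. The samples of the 3 groups did not overlap, with Scramble highest and Si-FIBP#2 lowest. The means were 17.3 ± 0.79, 2.79 ± 0.12 and 2.27 ± 0.18, so that 16.2% of the Scramble level was left after Si-FIBP#1 and 13.1% after Si-FIBP#2. On the log2(FPKM + 1) scale, which understates low levels, the differences from Scramble were -2.27 and -2.48, and with a pseudocount of 0.1 they were -2.59 and -2.88. Si-FIBP#2 differed from Si-FIBP#1 by -0.22, which is also given without a test because the same samples chose the set. One transcript, ENST00000316660, carried 97.7% of the gene in Scramble, 98.8% after Si-FIBP#1 and 97.1% after Si-FIBP#2. The gene rested on an estimated 563 to 660 fragments per Scramble library and 72 to 108 per FIBP siRNA library.

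BCL2L11, which can bind all anti-apoptotic members and activate the effectors, moved in the other direction. It was at 2.93, 3.49 and 3.25 FPKM in Scramble, 11.70, 12.42 and 10.67 after Si-FIBP#1 and 8.21, 11.86 and 9.19 after Si-FIBP#2. All 6 FIBP siRNA samples lay above all 3 Scramble samples, while the siRNA groups overlapped. In FPKM the mean rose 3.60-fold with Si-FIBP#1 and 3.03-fold with Si-FIBP#2. On the log2(FPKM + 1) scale, which understates low genes, the difference was 1.58 ± 0.12 (SE) with Si-FIBP#1 at an adjusted p of 9.2e-06. With Si-FIBP#2 it was 1.34 ± 0.12 at an adjusted p of 2.8e-05. A pseudocount of 0.1 gave 1.82 and 1.55. Between the siRNAs it differed by -0.24 (95% interval -0.52 to 0.04, adjusted p = 0.229), and without Si-FIBP#2 replicate 2, the highest of its group, by -0.38 with an adjusted p of 0.0325. The leading coding transcript, ENST00000393256, was at 1.43, 1.16 and 0.54 FPKM in Scramble, 3.93, 5.38 and 4.23 after Si-FIBP#1 and 2.35, 4.20 and 1.98 after Si-FIBP#2. Of the exon bases of BCL2L11, 727 of 6658 are shared with MIR4435-2HG on the opposite strand, and whether the values used strand is not stated. MIR4435-2HG was at a mean of 84.4 FPKM in Scramble, 71.2 after Si-FIBP#1 and 68.6 after Si-FIBP#2.

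The other 3 BH3-only members moved by far less. BBC3 was at 6.78, 6.39 and 4.83 FPKM in Scramble, 6.67, 6.67 and 5.63 after Si-FIBP#1 and 7.57, 6.0 and 8.41 after Si-FIBP#2, with all groups overlapping. Its differences from Scramble were 0.07 (95% interval -0.24 to 0.39, adjusted p = 0.699) and 0.25 (-0.07 to 0.57, adjusted p = 0.169), and without the assembled transcripts, which held 54.0% of the gene in Scramble, the second became 0.57 with an adjusted p of 0.0324. BID, which caspase-8 cleaves to link death receptors to mitochondria, was at 20.14, 20.57 and 22.85 FPKM in Scramble, 20, 16.01 and 16.51 after Si-FIBP#1 and 19.73, 18.26 and 16.45 after Si-FIBP#2. The Scramble samples were the highest, by a narrow margin to the first sample of each siRNA. BID fell by 0.27 with Si-FIBP#1 at an adjusted p of 0.0488, a call lost in 10 of 18 alternatives with an adjusted p of up to 0.159, and the value with Si-FIBP#2 was -0.21 at an adjusted p of 0.0992. BAD, which binds BCL2 and BCL-xL and is held back by phosphorylation, was at 49.53, 49.85 and 52.11 FPKM in Scramble, 43.56, 42.36 and 46.25 after Si-FIBP#1 and 43.94, 41.03 and 46.61 after Si-FIBP#2. It fell by 0.19 (adjusted p = 0.0251) and by 0.20 (adjusted p = 0.0209), and all 6 siRNA samples lay below all 3 Scramble samples. The call with Si-FIBP#1 was lost without Scramble replicate 2 (adjusted p = 0.0556), without Scramble replicate 3 (0.0854), without Si-FIBP#1 replicate 1 (0.0636) and without Si-FIBP#1 replicate 2 (0.0901), and that with Si-FIBP#2 without Scramble replicate 3 (0.0738) and without Si-FIBP#2 replicate 2 (0.051). BAD shares 404 of its 1708 exon bases with GPR137 on the opposite strand, at means of 27.8, 29.2 and 34.2 FPKM in the 3 groups.

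The effectors went in opposite directions. BAX was at 60.94, 57.16 and 67.49 FPKM in Scramble, 48.55, 52.70 and 51.89 after Si-FIBP#1 and 45.78, 50.33 and 51.74 after Si-FIBP#2, all 6 siRNA samples below all Scramble samples. It fell by 0.27 ± 0.07 (SE, adjusted p = 0.0128) and by 0.32 ± 0.07 (adjusted p = 0.00522). The highest Scramble value came with a 300 nt transcript, ENST00000515540, listed at 14.80 in that sample and at 0 and 2.43 in the other two, and without transcripts under 500 nt the difference with Si-FIBP#1 was -0.16 (adjusted p = 0.0318). The main coding transcript of BAX, ENST00000345358, was at 29.47, 27.63 and 28.53 FPKM in Scramble, 24.64, 25.48 and 24.78 after Si-FIBP#1 and 23.60, 25.82 and 23.86 after Si-FIBP#2. BAK1, the effector that already sits in the mitochondrial membrane, was at 16.02, 16.32 and 16.94 FPKM in Scramble, 21.45, 22.26 and 22.46 after Si-FIBP#1 and 19.35, 24.15 and 18.99 after Si-FIBP#2. All 6 siRNA samples lay above the Scramble samples. It rose by 0.40 ± 0.09 (adjusted p = 0.00399) and by 0.32 ± 0.09 (adjusted p = 0.0134), and the second value was 0.17 with an adjusted p of 0.115 under the median ratio scaling and 0.21 with an adjusted p of 0.0153 without Si-FIBP#2 replicate 2, the highest of its group. Neither effector differed past the test between the siRNAs, with intervals of -0.21 to 0.11 for BAX and -0.28 to 0.11 for BAK1, though without Si-FIBP#2 replicate 2 BAK1 differed by -0.19 with an adjusted p of 0.0469.

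**Figure D2:**
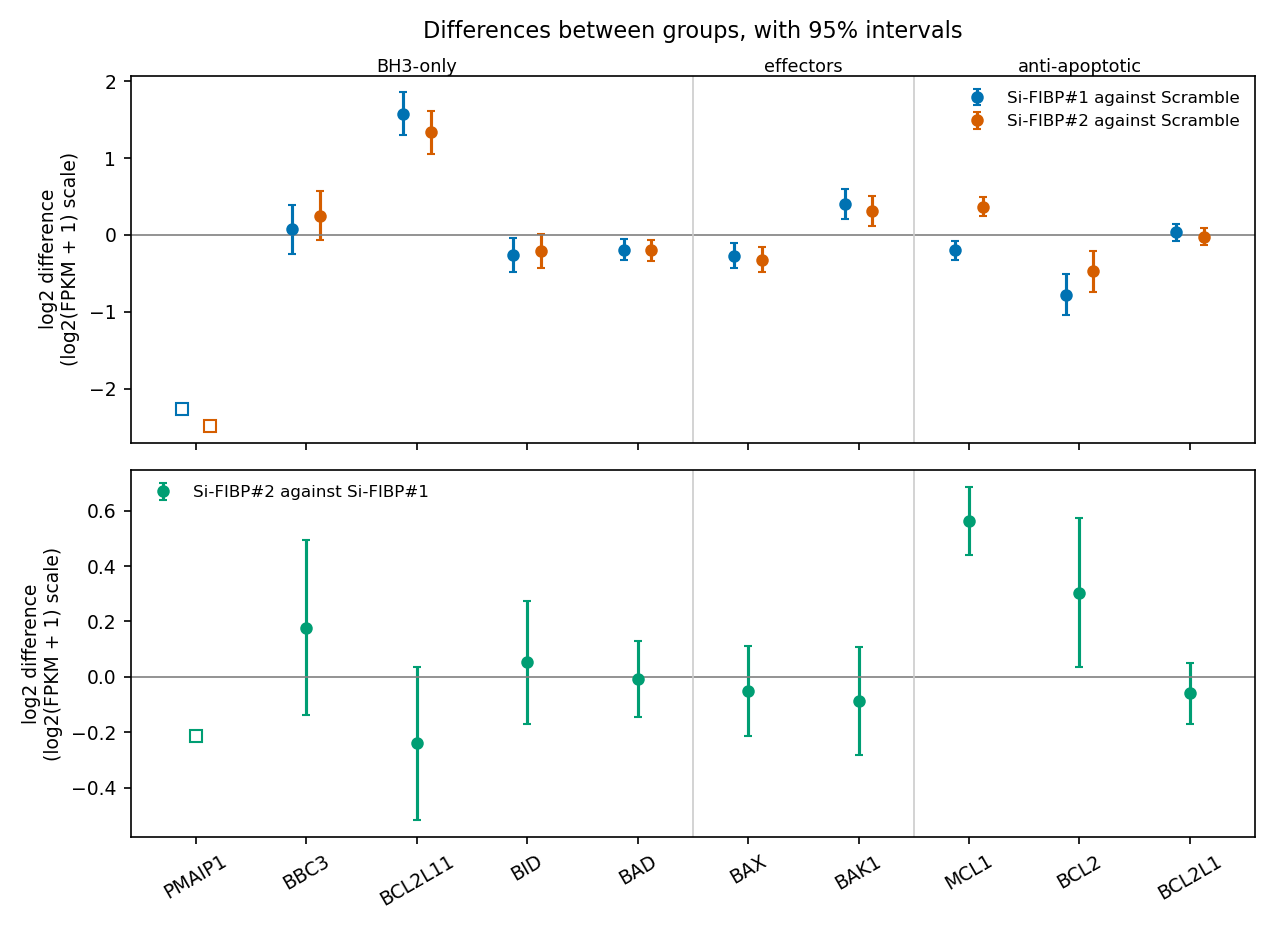
Differences between groups on the log2(FPKM + 1) scale, against Scramble in the upper panel and Si-FIBP#2 against Si-FIBP#1 in the lower one, with 95% intervals from the limma fit. The open squares of PMAIP1 carry no interval because the set was chosen by its fall, BCL2 passed the filter only through Scramble, and in the lower panel MCL1, at 0.56, is the member that passed the test.

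Of the anti-apoptotic members, MCL1, the main partner of PMAIP1, had the highest level of the 10 in every group. It was at 115.28, 115.03 and 116.33 FPKM in Scramble, 98.42, 97.81 and 105.87 after Si-FIBP#1 and 154.89, 138.54 and 154.42 after Si-FIBP#2. The groups did not overlap, and Scramble lay between the siRNAs. MCL1 fell by 0.20 ± 0.06 (SE) with Si-FIBP#1 (adjusted p = 0.0148), a call lost without Si-FIBP#1 replicate 2 (adjusted p = 0.0564), and by 0.30 with an adjusted p of 0.00309 under the median ratio scaling. With Si-FIBP#2 it rose by 0.36 ± 0.06 (adjusted p = 0.00051), or by 0.22 with an adjusted p of 0.0167 under the median ratio scaling. Between the siRNAs it was higher by 0.56 ± 0.06 with Si-FIBP#2 (95% interval 0.44 to 0.69, adjusted p = 0.000381), a ratio of 1.48. MCL1 was the 1 member of the 9 tested that passed between the siRNAs, where 9.58% of all genes were higher, 5.8% lower and 0.561% past a 2-fold change as well. The coding transcript ENST00000369026 held most of the gene, at 106.75, 108.68 and 109.21 FPKM in Scramble, 89.38, 91.47 and 93.27 after Si-FIBP#1 and 140.89, 124.15 and 141.24 after Si-FIBP#2.

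BCL2 had the lowest level of the 10 in each group and reached the filter of 1 FPKM in 5 samples. It would not have passed without the Scramble samples, where it was high. It was at 1.66, 1.62 and 1.80 FPKM in Scramble, 0.58, 0.58 and 0.56 after Si-FIBP#1 and 1.00, 1.02 and 0.81 after Si-FIBP#2, in 3 groups that did not overlap. In FPKM the mean was 33.9% of Scramble after Si-FIBP#1 and 55.7% after Si-FIBP#2. On the log2(FPKM + 1) scale, which understates low genes, the differences were -0.78 ± 0.12 (SE) and -0.47 ± 0.12, and with a pseudocount of 0.1 they were -1.41 and -0.79. In a fit with no filter on low values, where its place among the genes tested did not depend on Scramble, the adjusted p-values were 0.000998 and 0.0105. The difference between the siRNAs was 0.30 (95% interval 0.03 to 0.57, adjusted p = 0.123). The gene rested on an estimated 65 to 226 fragments per library. BCL2L1, the gene of BCL-xL, was at 75.01, 72.65 and 73.06 FPKM in Scramble, 76.41, 77.46 and 72.71 after Si-FIBP#1 and 74.83, 68.84 and 73.66 after Si-FIBP#2. The groups overlapped throughout, and the differences of 0.04 (95% interval -0.07 to 0.15) and -0.02 (-0.13 to 0.09) did not pass the test. Under the median ratio scaling the second was -0.17 with an adjusted p of 0.0258. BCL2L1 shares 1424 of its 3314 exon bases with ABALON on the opposite strand, which was at 3.63, 2.12 and 4.12 FPKM.

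Summed by role, the anti-apoptotic members were at 191 ± 1.36 FPKM in Scramble, 177 ± 2.04 after Si-FIBP#1 and 223 ± 12.4 after Si-FIBP#2. The BH3-only members were at 98.2 ± 2.06, 82.3 ± 2.24 and 81.4 ± 1.84, and the effectors at 78.3 ± 5.59, 73.1 ± 2.70 and 70.1 ± 4.71. Without PMAIP1, which chose the set, the BH3-only sum was 80.9 ± 1.90, 79.5 ± 2.26 and 79.1 ± 1.78, in which BCL2L11 was higher and BAD and BID were lower with the siRNAs. The anti-apoptotic members held 52.0% ± 0.94 of the summed FPKM of the 10 in Scramble, 53.2% ± 0.19 after Si-FIBP#1 and 59.5% ± 1.79 after Si-FIBP#2. Without PMAIP1 these shares were 54.5% ± 1.06, 53.7% ± 0.17 and 59.9% ± 1.82, and the order of Scramble and Si-FIBP#1 turned. By sample the shares without PMAIP1 were 55.1%, 55.2% and 53.3%, then 53.6%, 53.6% and 53.9%, then 61.5%, 57.9% and 60.2%, so that the Si-FIBP#2 samples stood above the other 6 and those of Si-FIBP#1 lay within the range of Scramble. MCL1 made up 60.6% ± 0.43, 56.9% ± 1.88 and 67.0% ± 0.50 of the anti-apoptotic sum. The sums and shares are given as a description. Within a sample, the MCL1 level divided by that of PMAIP1 was 6.70 ± 0.32 in Scramble, 36.2 ± 3.20 after Si-FIBP#1 and 66.0 ± 4.28 after Si-FIBP#2. A higher ratio was fixed by the choice of the set on the fall of PMAIP1, and with Si-FIBP#1 it went up while MCL1 itself fell.

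**Figure D3:**
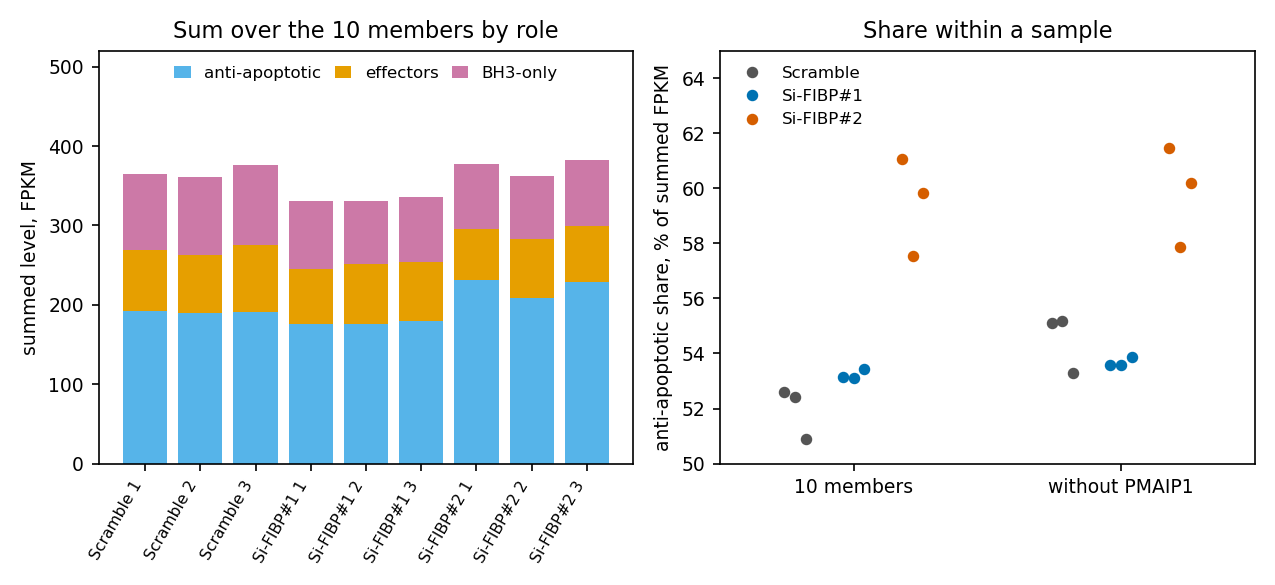
Left, FPKM summed by role for each sample, with bars starting at 0. Right, the share of the anti-apoptotic members in the summed FPKM, in percent on an axis from 50 to 65, 1 point per sample, over the 10 members and without PMAIP1, where the Si-FIBP#2 samples lie above all others in both.

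Sequence around the members was searched for letters that bear on the siRNAs and on the study's factor, STAT3. The letters opposite bases 2 to 8 of the siRNA guide strands are TTCAGCA (Si-FIBP#1) and TTTGCTA (Si-FIBP#2), taken from the siRNA sequences in the study's methods. In the 3′ UTRs of the members, in the sense of the gene, TTCAGCA occurred in 4 of 10 (PMAIP1, BID, MCL1 and BCL2L1), against 13.1% of 11151 tested genes. TTTGCTA occurred in 3 of 10 (BID, MCL1 and BCL2), against 13.0%. The genes compared were not matched for UTR length, and a longer UTR has more places for a match. In the members with a match the 3′ UTR was 1438 to 4247 nt long. Of those without a match, BCL2L11 had 4216 nt, and BBC3, BAD, BAX and BAK1 had 162 to 1251 nt. The part of length in these shares was not tested. The matches in PMAIP1 and MCL1 are shown because these are the member the set was chosen for and the one that differed between the siRNAs. Capitals mark the match.
PMAIP1, Si-FIBP#1, chr18:59903946-59903970 (+): tgattttatTTCAGCAggaataatt
MCL1, Si-FIBP#1, chr1:150577140-150577164 (-): aagttcagtTTCAGCAacaaacaaa
MCL1, Si-FIBP#2, chr1:150575219-150575243 (-): aaggtcatcTTTGCTAgagctattt
A match is a description of the letters and not of a site in use.

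In RefSeq promoters (GRCh38.p14, a window mostly upstream of each start), 9 of the 10 members matched, with 15 promoters in all and MCL1 the one not matched. On both strands, the STAT letters TTCNNNGAA were in 0 of these 15 promoters, against 7.7% of 35116 promoters. The cAMP response element core TGACGT, which ATF4 and CREB1 can bind, was in 3 of the 15, belonging to BAD and PMAIP1, against 8.0% of all. These were 2 distinct sites, since a pair of overlapping BAD promoters held the same one. The FOXO letters GTAAACA were in 1 of the 15, of BCL2L11, against 3.4%. The stretches of PMAIP1 and BCL2L11, the members furthest from Scramble, are printed with the match in capitals, that of PMAIP1 being on the other strand.
PMAIP1, chr18:59899920-59899965 (+): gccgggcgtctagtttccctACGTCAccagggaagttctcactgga
BCL2L11, chr2:111120671-111120717 (+): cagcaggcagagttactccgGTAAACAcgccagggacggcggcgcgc

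Of the known transcription factors of BH3-only genes, 10 of 12 passed the filter, 1 of them only through its Scramble samples. Of the other 9, 0 rose while 4 fell with Si-FIBP#1, where 27.8% of all genes rose and 19.9% fell, and 0 rose while 3 fell with Si-FIBP#2, where 31.1% rose and 17.7% fell. Their median differences were 0.02 and -0.05. E2F1, which can drive BH3-only genes, fell from 23.4 ± 0.45 FPKM to 6.88 ± 0.63 and 10.2 ± 1.58, log2 differences of -1.64 (adjusted p = 3.2e-06) and -1.13 (adjusted p = 3.1e-05). ATF4, the stress factor that induces PMAIP1, had the highest level of the list in Scramble and fell from 128 ± 2.55 to 75.6 ± 2.63 and 88.6 ± 4.46, by 0.75 (adjusted p = 3.9e-06) and 0.52 (adjusted p = 3.7e-05). CREB1, named above with ATF4 for the same letters, was at 7.67 ± 0.69, 8.32 ± 0.36 and 9.11 ± 1.55 and did not pass the test. FOXO3, a known activator of BCL2L11, was at 7.24 ± 0.36, 8.15 ± 0.36 and 6.97 ± 0.06 and did not pass the test. The part of these factors in the levels of the members was not tested.

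Around the members, 8 of 12 other family genes passed the filter, BIK, another BH3-only gene, only through the siRNA samples where it was high. It was at 1.13, 1.18 and 0.63 FPKM in Scramble, 2.15, 2.15 and 2.72 after Si-FIBP#1 and 1.54, 2.29 and 2.68 after Si-FIBP#2, and is given as a description. Of the other 7, 1 rose and 3 fell with Si-FIBP#1, 2 rose and 4 fell with Si-FIBP#2, against 27.8% and 19.9%, then 31.1% and 17.7%, of all genes. Their median differences were 0.09 and -0.23. Under the median ratio scaling 0 and 1 rose, where 21% and 20.5% of all genes rose. BOK, an effector-like gene, BCL2L12 and BNIP3 fell in both comparisons and under every scaling. BCL2L12 had the highest level of these in Scramble, and was at 47.3 ± 3.89 FPKM there, 29.3 ± 2.17 after Si-FIBP#1 and 37.1 ± 1.84 after Si-FIBP#2. BCL2A1, BCL2L10 and BCL2L14 were listed at 0 in all Scramble samples and were not tested, and HRK was also below the filter. Of 6 genes that control MCL1 protein turnover, TRIM17 was below the filter. Of the other 5, 4 rose and 1, the ubiquitin ligase gene MARCHF5, fell with each siRNA. Of all genes, 27.8% and 31.1% rose and 19.9% and 17.7% fell. The median differences of the 5 were 0.24 and 0.41. Among the 4 that rose was USP9X, a deubiquitinase gene and not a ligase gene, by 0.24 (adjusted p = 0.0178) and 0.51 (adjusted p = 0.000281). HUWE1, a ligase gene for MCL1, was the highest in Scramble, at 74.5 ± 3.85 FPKM against 86.5 ± 3.68 and 91.2 ± 5.38 with the siRNAs. Under TPM and under the median ratio 1 of these 5 rose with Si-FIBP#1, BTRC, and with Si-FIBP#2 4 and 2 rose, where 23.8% and 21% of all genes rose after Si-FIBP#1 and 30.2% and 20.5% after Si-FIBP#2.

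The apoptosome and caspase genes include CASP8, whose product acts before the membrane by cleaving BID. Of the 8 tested, 4 rose and 2 fell with each siRNA, where 27.8% and 31.1% of all genes rose and 19.9% and 17.7% fell. Their median differences were 0.21 and 0.13. Under the median ratio scaling 3 and 4 rose and 3 fell with each, where 21% and 20.5% of all genes rose and 25.5% and 26.5% fell. CASP8 and CASP9 rose and CASP2 fell in both comparisons under every scaling. CYCS, the gene of cytochrome c, fell from 99.5 ± 11.6 FPKM to 67.5 ± 4.48 with Si-FIBP#1 (log2 difference -0.55, adjusted p = 0.000851) and was at 84.4 ± 5.96 with Si-FIBP#2 (-0.23, adjusted p = 0.0584). Of 7 genes of caspase inhibitors and their antagonists, 1 rose and 3 fell with each siRNA, against 27.8% and 31.1% of all genes that rose and 19.9% and 17.7% that fell. Their median differences were -0.06 and -0.04. Under the median ratio scaling 0 rose and 3 and 4 fell, where 21% and 20.5% of all genes rose and 25.5% and 26.5% fell. BIRC3, an inhibitor of apoptosis, fell by 1.32 and 0.85, and BIRC5 (survivin), which also serves in mitosis, by 1.45 and 0.62. DIABLO, which frees caspases from these inhibitors, fell by 0.43 and 1.23, and between the siRNAs it differed by -0.80 (adjusted p = 0.00302) while BIRC5 differed by 0.83 (adjusted p = 0.000673). Of 8 genes of death receptors and their signalling partners, 3 rose and 0 fell with each siRNA. TNFRSF10B was the only receptor gene among those that rose. The share that rose was near the 27.8% and 31.1% of all genes, and the median differences of the 8 were -0.01 and 0.13. Under the median ratio scaling 2 rose while 3 and 2 fell, where 21% and 20.5% of all genes rose and 25.5% and 26.5% fell. TNFRSF10B, a TRAIL receptor, and RIPK1 rose under every scaling, and TNFRSF1A, the highest of the list in Scramble, at 127 ± 6.76, 111 ± 5.25 and 120 ± 12.9 FPKM, did not pass the test, but was called lower with Si-FIBP#1 under TPM and with both siRNAs under the median ratio. The genes of the outer membrane channel, VDAC1, VDAC2 and VDAC3, all fell with Si-FIBP#1 and 0 of them changed with Si-FIBP#2, though all 3 fell there under the median ratio, where 26.5% of all genes fell. Of all genes, 19.9% and 17.7% fell, and the median differences of the 3 were -0.23 and -0.04. VDAC1, the highest in Scramble, was at 230 ± 2.04, 169 ± 6.36 and 224 ± 11.2 FPKM.

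**Figure D4:**
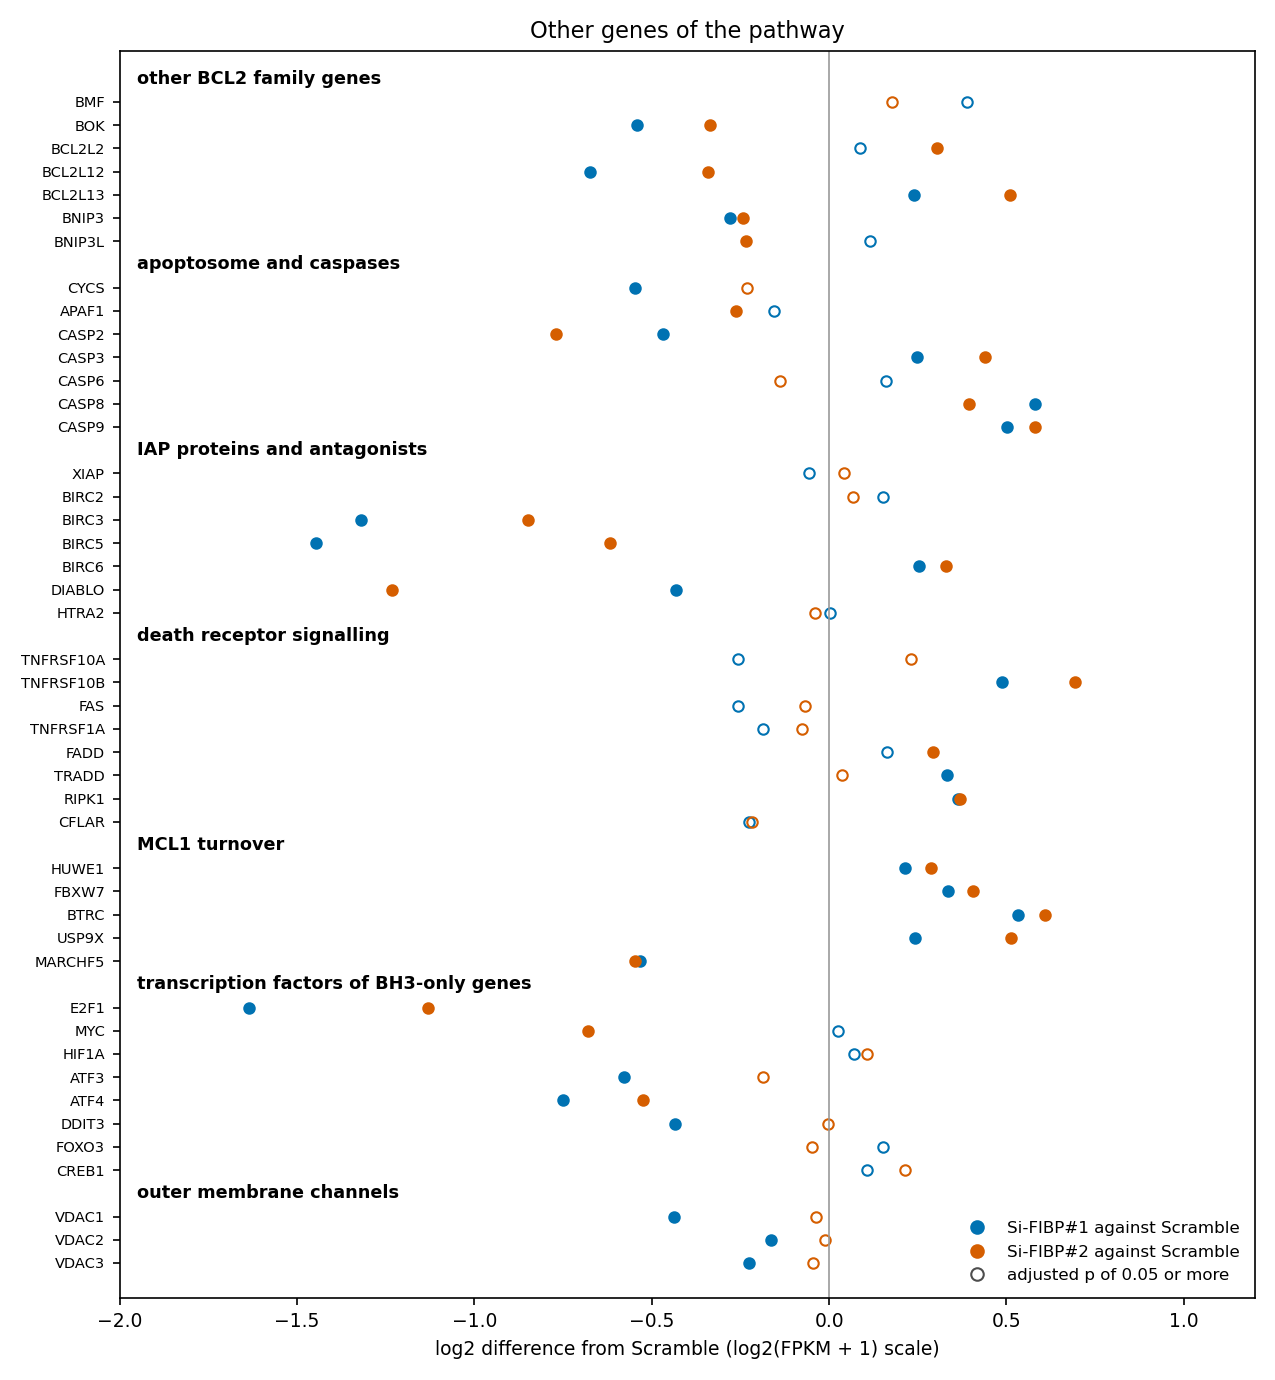
Log2 differences from Scramble of the pathway genes around the members, grouped by list, for Si-FIBP#1 and Si-FIBP#2, with filled points where the adjusted p was below 0.05, without genes that passed the filter only through Scramble or only through the siRNA samples. The points furthest to the left are E2F1, BIRC5, BIRC3 and DIABLO, and both points of CASP8, CASP9 and TNFRSF10B are filled and above 0.

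The 5 tested genes with a pattern most like PMAIP1 were LYAR, CDCA7, H2AZ1, TMPO and PTMA, with a Pearson r of 0.997, 0.997, 0.996, 0.996 and 0.996 over the 9 samples on the log2 scale. The r describes the same 3 groups of samples in each case and carries no test. LYAR went from 80.6 FPKM in Scramble to 36.7 and 32.9, and H2AZ1, a histone variant gene, from 775 to 315 and 298.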

How the data were processed

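RNA was sequenced from 9 samples of H1299 cells. The authors deposited 1 table per sample of FPKM per transcript with 2 decimals, a unit inferred from the values. The submitters' processing notes name HISAT2 and StringTie. Versions, genome build, annotation and strand setting are not given in the sources used here. Of the 244443 transcripts, 14956 were assembled by the authors. The comparisons were with groups taken from the labels.

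Transcript FPKM were summed per gene, and the 14985 genes reaching 1 FPKM in 3 or more samples were fitted with limma 3.58.1 in R 4.3.3 on log2(FPKM + 1), over all 9 samples with a mean-variance trend, with Benjamini-Hochberg adjustment at 0.05 and, after the study, 2-fold. The fit was tested on simulated data with independent noise. A log2 change of 1 was given to 200 of 14985 genes, drawn only from genes that were not low in Scramble. The fit recovered 88.5% of them for Si-FIBP#1 against Scramble, 88% for Si-FIBP#2 against Scramble and 90.5% for the contrast between the siRNAs. A gene as low as BCL2 could not be drawn, so the recovery does not cover such genes, and false calls are not given here. Depth was estimated from the steps of low values in 8028 genes with 1 transcript, which were only partly whole (mean cosine 0.737 to 0.793, where 1 is whole), with a length offset of 260 to 300 nt. Fragment numbers are therefore rough, carry no interval, and no count test was run. Short transcripts weigh more under this offset, so sums without those under 500 nt were added after seeing the data.

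Members and list genes that reached the filter only through Scramble or only through the siRNA samples are left out of the counts against Scramble, and PMAIP1 is given without a test in all comparisons. The members and lists were chosen with earlier results of these data known. Named genes were the 10 members, FIBP, the 5 most like PMAIP1, and of each list those past the test and 2-fold, those at 0 and the highest in Scramble. Other list genes named (FOXO3, CREB1, BIK, BOK, BNIP3, HRK, MARCHF5, BTRC, USP9X, TRIM17, CASP8, CASP9, CASP2, TNFRSF10B, RIPK1, VDAC2 and VDAC3) were chosen after their values were seen. Of the lists, 2 genes that are part of the counts are not reported here by name or drawn. Of the Ensembl transcripts 89.5% were in GENCODE 29, 90.7% of them with the same length, but the leading transcript of only 2 of the 10 members. Sequences came from GENCODE 29 (GRCh38) and RefSeq. Python 3.11.15 was used for sequences, depth and figures.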

Additional observations from a re-analysis of the deposited data

Results flagged for a closer look

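MCL1 was the member whose effect differed between the FIBP siRNAs. The difference of Si-FIBP#2 from Si-FIBP#1 was 0.56 on the log2(FPKM + 1) scale (adjusted p = 0.000381), tested as a contrast of its own in the limma fit, with all 3 Si-FIBP#2 samples above and all 3 Si-FIBP#1 samples below the 3 Scramble samples. Over the 18 alternatives it lay between 0.51 and 0.61, with adjusted p-values from 0.000103 to 0.00426.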

How the results depend on the processing

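The differences of the members and the counts of calls were recomputed under 18 alternatives, of which 9 left out 1 sample, the anti-apoptotic shares under 13, and the other gene lists under TPM and the median ratio alone. The number of members past the test, with BCL2 included, with Si-FIBP#1 ranged from 4 to 7 when 1 sample was left out, the lowest without Si-FIBP#1 replicate 2 (3 to 6 with BCL2 left out), and between the siRNAs from 1 to 3, the highest without Si-FIBP#2 replicate 2. The shares of all genes called in these fits are not given here, so the ranges cannot be read as particular to the members. With a pseudocount of 0.1 and BCL2 left out, 1 member passed the test and the 2-fold threshold with Si-FIBP#1. The anti-apoptotic shares here include PMAIP1, whose fall chose the set and raises them with the siRNAs. This share was 50.61% in Scramble and 51.90% in Si-FIBP#1 without assembled transcripts, and 53.62% and 54.56% without transcripts under 500 nt. With PMAIP1 left out, the main values had the other order, 54.5% in Scramble and 53.7% in Si-FIBP#1. That version was not recomputed under the alternatives, so they do not decide the order of Scramble and Si-FIBP#1. Directions turned only for differences that did not pass the test. BBC3 with Si-FIBP#1 was -0.015 under the median ratio and ranged from -0.054 to 0.155 with 1 sample left out. BCL2L1 with Si-FIBP#1 was -0.0086 under TPM and -0.064 under the median ratio, and with Si-FIBP#2 it ranged from -0.046 to 0.013 with 1 sample left out. Between the siRNAs, BAD was 0.037 under TPM and 0.016 without transcripts under 500 nt, and with 1 sample left out BID ranged from -0.0072 to 0.146, BAD from -0.051 to 0.039 and BAX from -0.086 to 0.00042. The cause was not tested. Of the values for the 9 members other than PMAIP1, BCL2 among them, 448 kept direction and side of the threshold, 18 lost and 5 gained a call. The 448 include all 17 values of BCL2 against Scramble with each siRNA. Since BCL2 passed the filter only through Scramble, they are no support for its differences. BCL2 could not be fitted with a filter of 5 FPKM.

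Whether the replicate numbers pair the samples is not known. Deviations from the group means correlated by -0.0568 to 0.103 between same-numbered samples. Pairs with different numbers were not set beside them, so these values do not decide it. With the replicate block and BCL2 left out, 5 in place of 6 members passed the test with Si-FIBP#1. BID was lost (adjusted p = 0.0553), and the block changed no other call of a member. The share of all genes called with the block is not given here. The median ratio scaling moved the higher share of calls between the siRNAs from 62.3% to 45.9%, and TPM to 74.7%. It also moved BAD with Si-FIBP#1 to -0.29 and with Si-FIBP#2 to -0.35 and BID with Si-FIBP#2 to -0.36 (adjusted p = 0.0156). BCL2, BBC3 and, with either FIBP siRNA, PMAIP1 rested on few estimated fragments, and the part of this in their spread was not tested.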
